A study of Mus musculus with 9 samples.

Results

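The glutathione genes described here are the 38 genes, of 57010 in the deposited table, whose symbols mark them as glutathione transferases, as glutathione peroxidases, or as the genes that make and recycle glutathione. They were picked by symbol alone: the alpha, mu, pi, theta, omega, kappa and zeta transferases, the microsomal transferases, the peroxidases, and Gclc, Gclm, Gss and Gsr, with pseudogenes left out. They comprise 4 synthesis and recycling genes, 26 transferases and 8 peroxidases. At least 1 count was recorded for 37 of them, and 32 passed the filter on low counts. The counts given below cover those 32 and not every member, since a gene can pass that filter through the group in which it is high. The untested members were Gpx2, Gpx5, Gpx6, Gsta5, Gstt4 and Mgst2.

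RNA was sequenced from liver of male BALB/c mice in 3 groups of 3 libraries, named AT3, CPT and CON. CPT and AT3 livers carry the same label, acute liver injury caused by cisplatin, and CON livers are labelled untreated. Cisplatin is a platinum compound, called DDP in the design text, which was injected. AT3 is not spelled out in the labels; the title of the study names atractylenolide III, a sesquiterpene lactone of Atractylodes. No source used here states a dose, a route or an interval before sampling. All groups share tissue, strain, sex and library kit. Whether the libraries of a group stem from different animals is not stated, and the p-values below therefore reflect variation among libraries, which may be technical.

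Glutathione is a tripeptide that is made in the cytosol by glutamate-cysteine ligase, which joins glutamate to cysteine and sets the rate, and then by glutathione synthetase, which adds glycine. Transferases join it to electrophiles such as drug metabolites and lipid aldehydes, peroxidases use it to reduce peroxides, and glutathione reductase returns the oxidised form with NADPH. The liver is its main producer, and many of these genes carry antioxidant response elements, the sites of the transcription factor NRF2. Binding to glutathione and export of the conjugate is a known route by which cells inactivate platinum compounds.

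Library totals lay between 26709886 and 28297486 counts in AT3, 23762623 and 28480479 in CPT, and 21485021 and 26476936 in CON. Levels are given below as CPM, counts scaled to library size, after TMM scaling, which sets the bulk of genes level between libraries, and 3 counts correspond to between 0.0934 and 0.169 CPM in a library. Mitochondrially encoded genes took 10.3% ± 0.944 of counts in AT3, 13.5% ± 2.62 in CPT and 31.7% ± 5.54 in CON (SD, n = 3 each). Their part in the results below was tested only by leaving them out, with the most abundant other genes, before scaling. Every member called in any of the comparisons stayed called in edgeR. TMM already trims genes of extreme level or change, so this check could alter little. The TPM values used below were not rescaled without these genes, so the check does not bear on them. The glutathione genes took 0.779% ± 0.0176 of counts in AT3, 0.842% ± 0.0583 in CPT and 0.948% ± 0.114 in CON (SD, n = 3 each). The hepatocyte markers Alb, Apoa1, Ttr, Serpina1a and Cps1 summed to between 76195 and 82219 CPM in AT3, 47075 and 64599 in CPT, and 67993 and 72440 in CON, so the tissue matched its label. In bulk liver RNA, fewer cells of a type and less RNA per cell cannot be told apart.

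Many members lie in tandem arrays, which the results below follow. All 38 were found by gene identifier in the GENCODE M21 annotation of GRCm38, whose coordinates are used; the submitters' processing notes name GRCm38, mm10 and GRCm39 without saying which the counts rest on. The 7 mu genes occupy chr3:107895821-108044894, a stretch of 149.1 kb, in the order Gstm5, Gstm7, Gstm6, Gstm3, Gstm2, Gstm1 and Gstm4, with Gstm5 on the plus strand and the others on the minus strand. The 4 theta genes lie at chr10:75774115-75837424, the 3 pi genes at chr19:4035407-4059569, and Gsto1 beside Gsto2 at chr19:47854970-47886324. Gclc and the alpha genes Gsta4, Gsta1, Gsta5 and Gsta2 share chr9:77754535-78355788, which spans 601.3 kb.

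The antioxidant response element core TGACNNNGC was searched on both strands of the RefSeq promoters of GRCm38.p6, each 250 bases before to 50 after a start site; no other motif was searched. Promoters were found for 33 of the members, and 5 of those genes held a match (15.2%), against 3781 of 27025 genes in the whole table (14.0%). The matches are shown because they are the only ones to this exact pattern among the members' promoters. The motif or its reverse complement is in capitals, written along the strand of the gene. Other forms of the element were not searched, so a gene without a match here may hold one. The promoters of Gstp1 and Gstp2, for instance, hold tgagtcagc, with G in place of the C of TGAC, which was not counted. They begin 121 (Gsta3), 42 (Gstm5), 129 (Gstm7), 134 (Gclm) and 56 (Mgst1) bases before the start site. Gstm7 and Mgst1 each also had a further promoter without a match, for Gstm7 that at the annotated start of the gene.
Gsta3, chr1:21240452-21240484, plus strand: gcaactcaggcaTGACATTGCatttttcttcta
Gstm5, chr3:107895800-107895832, plus strand: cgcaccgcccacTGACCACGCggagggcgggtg
Gstm7, chr3:107931723-107931755, minus strand: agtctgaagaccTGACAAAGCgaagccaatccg
Gclm, chr3:122245411-122245443, plus strand: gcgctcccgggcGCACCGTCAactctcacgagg
Mgst1, chr6:138140459-138140491, plus strand: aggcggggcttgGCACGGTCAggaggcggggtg
A match describes the sequence of these windows and is not shown to be a site. The 5 genes did not move alike, as the values below show.

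In cisplatin-injured livers against untreated ones, the glutathione genes moved in both directions. Of 32 tested, 10 were higher and 13 lower in CPT than in CON at adjusted p < 0.05 in edgeR's quasi-likelihood test, and 9 were not called. Across all 13686 genes tested, 60.8% were called (30.0% higher and 30.8% lower), so the members' share lies near the background. Their median log2 fold change was −0.22, beside −0.02 for all tested genes. For 24 members every CPT library lay on one side of every CON library, against 64.2% of all genes. AT3 livers against CON livers gave 9 higher, 16 lower and 7 not called, where 64.4% of all genes were called (31.5% higher and 32.9% lower), and the libraries did not overlap for 21 members, against 70.3% of all genes. The median was −0.26 there, beside −0.04 for all genes. Both comparisons use the same CON libraries, so their values are set side by side and not counted as separate support.

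The direction of several members depends on the scale. On the authors' TPM values, tested with limma on log2(TPM + 1), the median of all genes itself was higher by 0.29 in CPT and by 0.32 in AT3 than in CON. The split of the called members became 16 higher and 7 lower in CPT, and 17 higher and 6 lower in AT3, each against CON. The falls that passed on both scales, in both comparisons, were those of Gclc, Gstm1, Gstm3, Gstm6, Gsta2 and Mgst3; the fall of Gstp1 passed on both scales in CPT only. All 10 rises in CPT and all 9 in AT3 passed on both scales. A further fit centred log2(TPM + 1) on each library's median, an alternative chosen after seeing the data. There 20 of the 23 calls in CPT and 23 of the 25 in AT3 held in the same direction. The calls of Gsto2 and Gstt1 were lost in both, and that of Gstp2 in CPT. Where the TPM scale turns the direction of a member or ends its call, its TPM value is given with it.

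**Figure D1:**
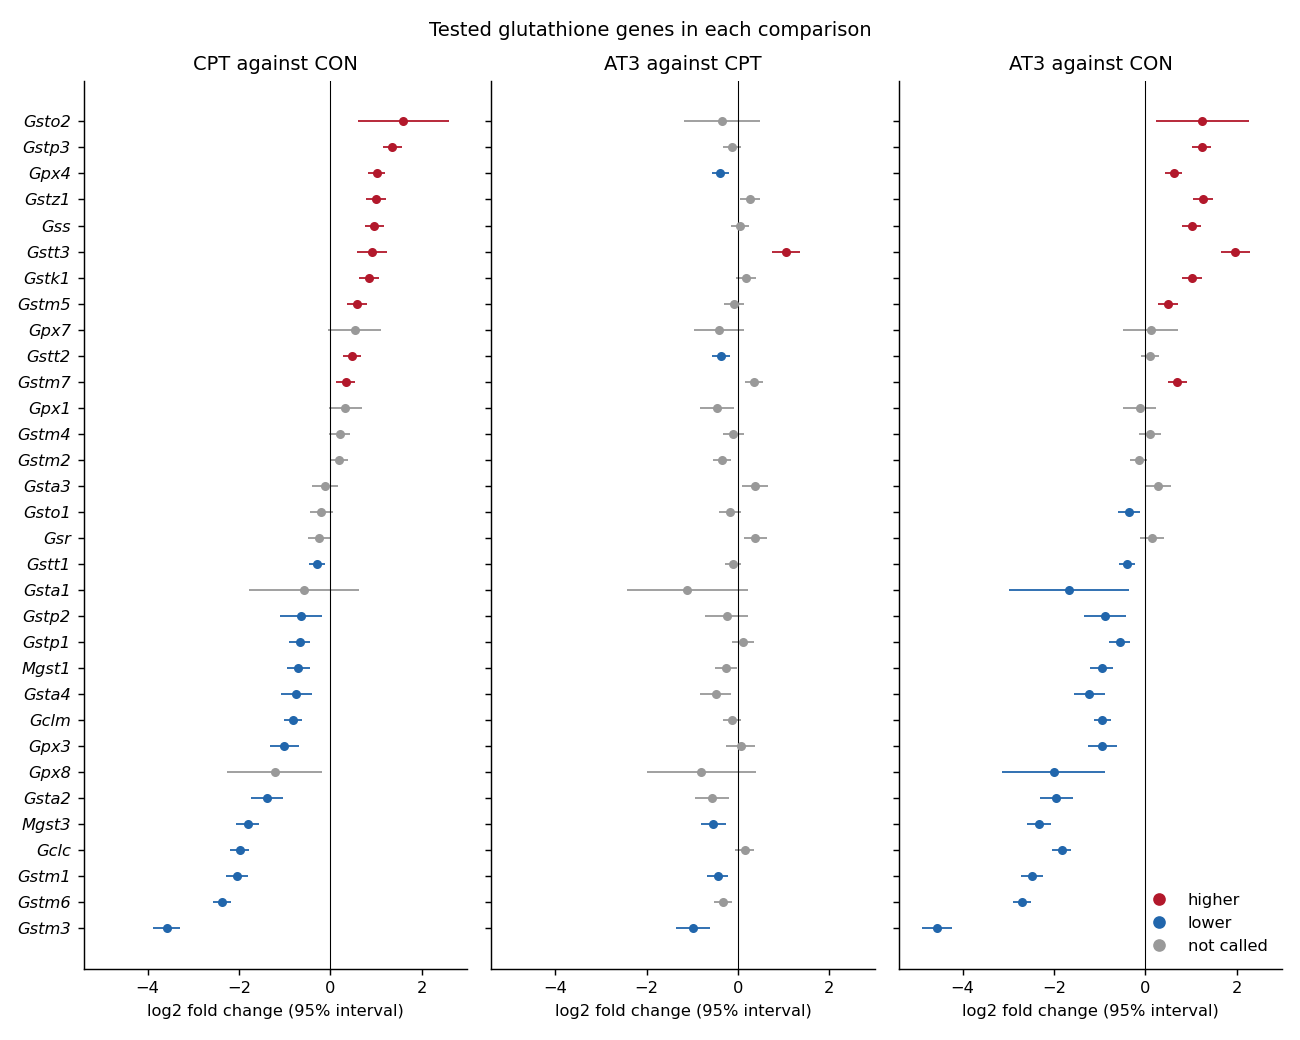
Log2 fold change of each tested glutathione gene (x axis, with 95% interval) in CPT against CON, AT3 against CPT and AT3 against CON, from the edgeR fit of all 9 libraries; red marks genes called higher, blue called lower and grey not called. Gstm3, Gstm6, Gstm1 and Gclc lie at the low end against CON, and in AT3 against CPT most genes lie close to 0, with Gstt3 the only gene called higher.

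The genes that make glutathione moved in opposite directions by CPM. The catalytic and the modifier subunit of glutamate-cysteine ligase fell, the modifier by CPM but not on the TPM scale, and glutathione synthetase rose. Gclc, the catalytic subunit, had 51.6, 63.3 and 59.5 CPM in the AT3 libraries and 52.7, 54.2 and 50.02 CPM in the CPT libraries, against 204.6, 185.3 and 230.0 CPM in the CON libraries. Every library of the injured livers lay below every CON library. Gclc was 3.95-fold lower in CPT than in CON (log2 fold change −1.98 ± 0.11 SE, edgeR adjusted p = 5.49e-10) and 3.55-fold lower in AT3 than in CON (−1.83 ± 0.11, adjusted p = 1.03e-09). Gclm, the modifier subunit, which raises the affinity of the ligase for glutamate, had 70.6, 76.2 and 80.1 CPM in AT3 and 80.3, 91.2 and 76.4 CPM in CPT, against 148.9, 136.9 and 151.1 CPM in CON. It was lower in both kinds of injured liver (−0.82 ± 0.10 in CPT, edgeR adjusted p = 2.93e-06; −0.95 ± 0.10 in AT3, adjusted p = 5.10e-07). On the TPM scale the Gclm values were 0.03 and 0.15 above CON and not called. On TPM centred on each library's median Gclm was called lower in both, at −0.36 in CPT (limma adjusted p = 0.00890). Its direction therefore rests on the scaling.

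Gss, glutathione synthetase, had 85.3, 88.4 and 87.4 CPM in AT3 and 89.0, 72.1 and 91.9 CPM in CPT, against 45.4, 44.7 and 39.6 CPM in CON. The injured livers stood above all CON libraries, by 1.95-fold in CPT (0.96 ± 0.10, edgeR adjusted p = 1.20e-06) and 2.01-fold in AT3 (1.01 ± 0.10, adjusted p = 5.87e-07). Gsr, glutathione reductase, was the lowest of these genes, at 11.6, 10.03 and 11.3 CPM in AT3, 6.89, 9.12 and 9.27 CPM in CPT, and 10.1, 9.23 and 10.6 CPM in CON. It was not called by CPM in any comparison (CPT against CON −0.24 ± 0.13, edgeR adjusted p = 0.129; AT3 against CON 0.14 ± 0.13, adjusted p = 0.347). On the TPM scale these values were 0.26, not called, and 0.63, called. Per length, the ratio of Gclm to Gclc TPM lay between 3.33 and 3.95 in AT3 libraries, 3.82 and 4.38 in CPT libraries, and 1.33 and 1.68 in CON libraries. The ratio of Gss to Gclc lay between 2.99 and 3.38 in AT3, 2.73 and 3.99 in CPT, and 0.348 and 0.495 in CON. These ratios do not depend on scaling between libraries, and they show that the 3 transcripts changed unequally.

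**Figure D2:**
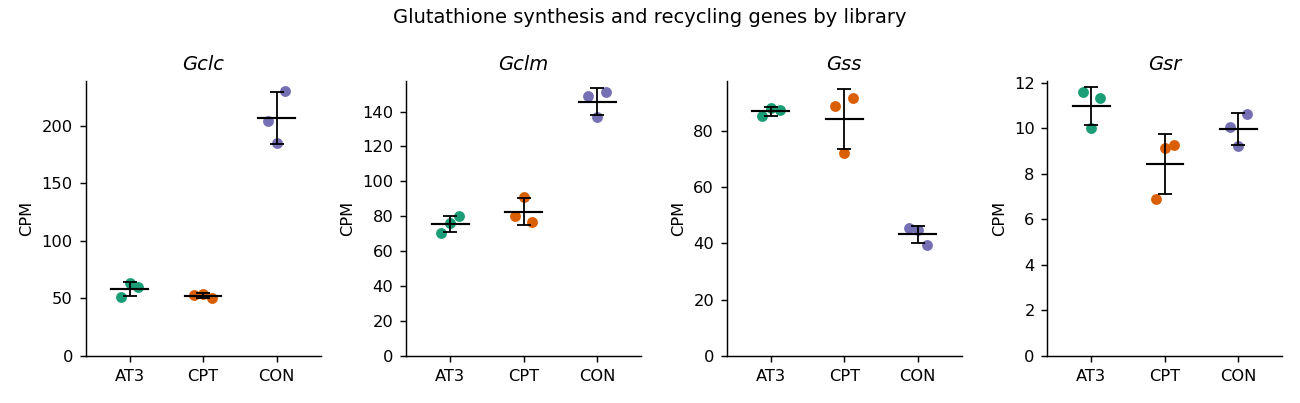
CPM (y axis, from 0) of Gclc, Gclm, Gss and Gsr in each of the 3 libraries of AT3, CPT and CON; the long bar is the mean and the whiskers are 1 SD. Gclc averaged 58.1 in AT3, 52.3 in CPT and 206.7 in CON, while Gss averaged 87.0, 84.3 and 43.2 in the same groups.

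The mu transferases held the largest falls of all members, and those falls stood next to genes of the same array that rose or did not pass the test. Gstm1, the main mu transferase of mouse liver, had 372.0, 343.4 and 459.9 CPM in AT3 and 587.1, 486.8 and 519.5 CPM in CPT, against 2201, 2198 and 2186 CPM in CON. All injured livers lay far below CON, and every AT3 library lay below every CPT library. The fall was 4.13-fold in CPT (−2.05 ± 0.12, edgeR adjusted p = 1.50e-09) and 5.603-fold in AT3 (−2.49 ± 0.12, adjusted p = 1.83e-10). Gstm3 had 1.31, 1.03 and 1.25 CPM in AT3 and 2.86, 1.77 and 2.54 CPM in CPT, against 30.0, 27.0 and 28.4 CPM in CON. It showed the largest change of all members, 11.96-fold lower in CPT (−3.58 ± 0.15, adjusted p = 3.54e-11) and 23.7-fold lower in AT3 (−4.56 ± 0.16, adjusted p = 5.94e-12). Gstm6 had 29.1, 28.9 and 33.6 CPM in AT3 and 41.2, 36.3 and 37.6 CPM in CPT, against 213.1, 192.1 and 190.3 CPM in CON. It fell 5.17-fold in CPT (adjusted p = 4.08e-11) and 6.51-fold in AT3 (adjusted p = 8.78e-12).

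The other mu genes did not follow. Gstm7 had 50.0015, 48.8 and 52.5 CPM in AT3 and 34.6, 37.6 and 46.1 CPM in CPT, against 29.9, 31.9 and 31.7 CPM in CON. It rose in CPT (0.34 ± 0.11, edgeR adjusted p = 0.0123) and in AT3 (0.69 ± 0.11, adjusted p = 3.65e-05); the CPT call was lost without CPT library 3, which stands nearest to AT3. Gstm5 rose as well, to 15.5 ± 0.576 CPM in AT3 and 16.4 ± 1.98 CPM in CPT, against 10.9 ± 1.12 CPM in CON (SD, n = 3 each; log2 fold change 0.49 and 0.58). Gstm2 and Gstm4 were not called against CON: Gstm2 averaged 190.1 CPM in AT3, 242.5 in CPT and 211.0 in CON, and Gstm4 21.9, 23.4 and 20.3. On the TPM scale Gstm2 and Gstm4 were called higher in both comparisons, Gstm2 in AT3 by 0.54 where the CPM value was −0.15. Along the array, the neighbours Gstm6 and Gstm3 fell, as did Gstm1, with Gstm2 between Gstm3 and Gstm1. Gstm5 and Gstm7 lie on one flank and Gstm4 on the other.

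The makeup of the mu class differed too. Summed over the 7 genes, mu TPM was 741 ± 84.7 in AT3, 1054 ± 80.5 in CPT and 2931 ± 302 in CON (SD, n = 3 each). Gstm1 supplied 54.5% ± 3.56 of it in AT3, 64.0% ± 3.45 in CPT and 88.5% ± 0.758 in CON, and Gstm2 29.8% ± 2.06, 25.2% ± 1.93 and 5.18% ± 0.276 in the same groups. The ratio of Gstm1 to Gstm2 TPM lay between 1.58 and 2.05 in AT3, 2.29 and 2.95 in CPT, and 16.4 and 18.4 in CON, with no overlap between any of the groups. The mu messages are alike in sequence, from 73.2% (Gstm3 and Gstm5) to 89.7% (Gstm1 and Gstm3) identical over their aligned part. Of all 50-base stretches in a transcript, however, only 33.0% in Gstm1, 28.8% in Gstm3, 11.5% in Gstm6 and 9.36% in Gstm2 recur in another gene, and none in Gstm4, Gstm5 and Gstm7. Counts of Gstm3 could hold reads of Gstm1, since 124 of its 1262 stretches recur there.

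**Figure D3:**
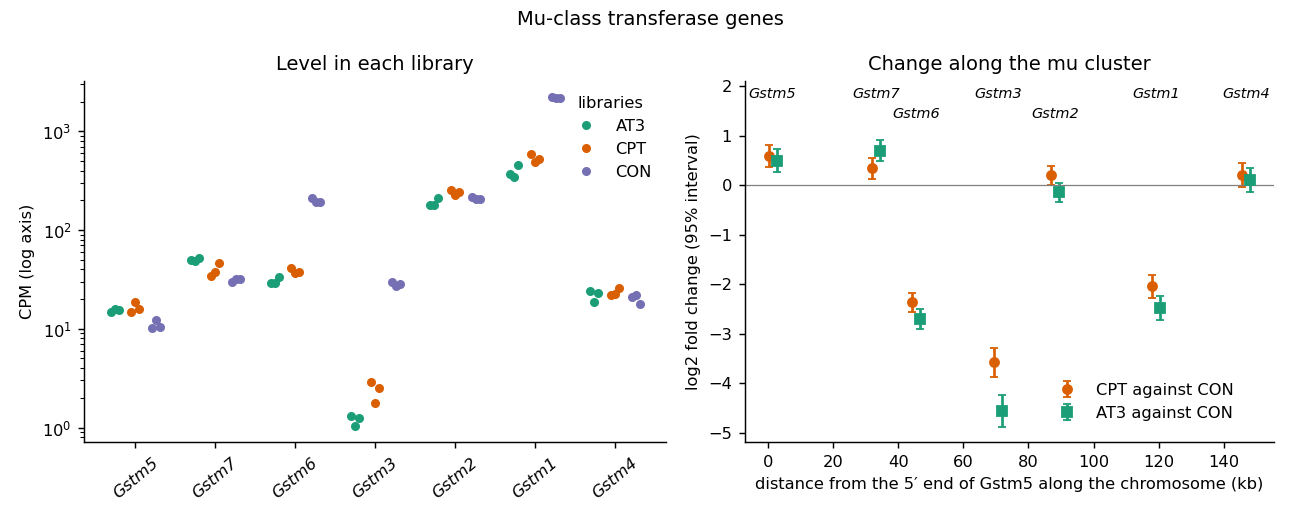
Left, CPM (log axis) of the 7 mu genes in each library, in chromosomal order; right, log2 fold change with 95% interval against CON (circles CPT, squares AT3) at each gene's distance in kb from the 5′ end of Gstm5. Gstm6, Gstm3 and Gstm1 lie between −2.05 and −4.56, while Gstm5, Gstm7, Gstm2 and Gstm4 lie between −0.15 and 0.69.

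The upstream regions of the mu genes, each taken from the promoter nearest the annotated start of the gene, share short stretches only. Further promoters of Gstm1, Gstm4, Gstm6 and Gstm7 were not aligned. Gstm1 and Gstm6, both of which fell, share the longest, with 50 of 61 aligned bases identical (82.0%). It is shown with the identical bases in capitals, from base −188 to −123 relative to the Gstm1 start site and −203 to −141 relative to that of Gstm6, in the RefSeq promoters of GRCm38.p6.
Gstm1, chr3:108018096-108018161, minus strand: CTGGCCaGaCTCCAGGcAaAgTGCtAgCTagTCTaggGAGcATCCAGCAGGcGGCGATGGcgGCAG
Gstm6, chr3:107943875-107943937, minus strand: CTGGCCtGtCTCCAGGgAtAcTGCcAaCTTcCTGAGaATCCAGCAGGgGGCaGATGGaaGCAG
Gstm3, which fell most, aligned with Gstm6 over 17 bases and with Gstm1 over 50 bases, 35 of them identical. Of the mu promoters, that of Gstm5 and 1 of those of Gstm7 held the TGACNNNGC matches shown above. Gstm5 and Gstm7 rose, while Gclm and Mgst1, which also held a match, were lower by CPM in CPT and AT3 than in CON.

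Of the alpha transferases, Gsta2 and Gsta4 fell by CPM in both kinds of injured liver and Gsta3, the most abundant, did not pass the test. Gsta3, which in mice is known for conjugating the epoxide of aflatoxin, had 418.4, 432.4 and 461.4 CPM in AT3, 251.8, 381.7 and 373.2 CPM in CPT, and 347.8, 420.7 and 314.4 CPM in CON. CPT library 1 was the lowest of all 9, and the groups overlapped with CON. Against CON the values were −0.11 ± 0.15 in CPT (edgeR adjusted p = 0.545) and 0.28 ± 0.15 in AT3 (adjusted p = 0.107), while on the TPM scale they were 0.74 and 1.32 and both called. Without CPT library 1 the CPT value was 0.12, and without CON library 2 it was 0.02, both with the sign turned. Without CON library 2 the AT3 value was 0.41 (adjusted p = 0.0326), and without CPT library 1 it was 0.33 (adjusted p = 0.0122), past the threshold in both cases.

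Gsta2 had 6.86, 6.14 and 8.35 CPM in AT3 and 7.67, 13.9 and 9.77 CPM in CPT, against 25.7, 32.1 and 24.5 CPM in CON. All injured livers were below CON, with −1.39 ± 0.18 in CPT (edgeR adjusted p = 6.89e-06) and −1.95 ± 0.18 in AT3 (adjusted p = 2.00e-07). Gsta4, which detoxifies the lipid aldehyde 4-hydroxynonenal, averaged 18.4 ± 0.971 CPM in AT3 and 25.8 ± 7.63 CPM in CPT, against 43.0 ± 7.0 CPM in CON (SD, n = 3 each). It was lower by CPM in both, with −0.74 in CPT and −1.23 in AT3, while on the TPM scale the values of −0.16 and −0.50 were not called. Gsta1 was scarce, at 0.284, 0.609 and 0.902 CPM in AT3, CPT and CON, and was called in AT3 against CON (−1.68, adjusted p = 0.0389) but not without AT3 library 1 or 3, or CON library 1 or 2, nor on the TPM scale (−0.41). Gsta1, Gsta2 and Gsta5 are near copies: 89.7%, 64.2% and 48.0% of their 50-base stretches recur in other genes, so the split of reads among them is uncertain. Their sum was 7.46 ± 1.05 CPM in AT3, 11.1 ± 3.70 in CPT and 28.6 ± 4.38 in CON.

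Within the pi class, the abundant Gstp1 and its copy Gstp2 fell by CPM and Gstp3 rose. Gstp1, the most abundant member per length in AT3 and in CON, had 2035, 1731 and 1999 CPM in AT3 and 1804, 1578 and 1969 CPM in CPT, against 2763, 2577 and 3193 CPM in CON. All injured livers lay below CON, with −0.67 ± 0.12 in CPT (edgeR adjusted p = 0.000182) and −0.57 ± 0.12 in AT3 (adjusted p = 0.000720); on the TPM scale the AT3 value was −0.18 and not called. Gstp2 averaged 20.7 ± 6.02 CPM in AT3 and 24.6 ± 4.72 CPM in CPT, against 38.4 ± 14.7 CPM in CON (SD, n = 3 each), with libraries that overlapped. Its call in CPT (−0.64, adjusted p = 0.0278) was lost in DESeq2 and without CPT library 2 or 3 or CON library 3. On the TPM scale its values of −0.26 in CPT and −0.38 in AT3 were not called. Gstp3 had 74.9, 69.0 and 83.9 CPM in AT3 and 78.1, 85.1 and 85.3 CPM in CPT, against 31.3, 35.8 and 29.8 CPM in CON. It was above CON in every injured liver (1.36 ± 0.10 in CPT, adjusted p = 2.77e-08; 1.23 ± 0.10 in AT3, adjusted p = 6.42e-08).

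Gstp1 and Gstp2 cannot be cleanly separated by short reads. Their transcripts are 96.2% identical over the aligned part, and 62.3% of the 50-base stretches of Gstp1 and 72.6% of those of Gstp2 recur elsewhere, while none of Gstp3 do. The sum of Gstp1 and Gstp2 was 1943 ± 172 CPM in AT3 and 1808 ± 198 CPM in CPT, against 2883 ± 328 CPM in CON (SD, n = 3 each). Counts of Gstp2 could hold reads of Gstp1, so the shared direction of the pair is not separate support for either. The likeness extends upstream, where 199 of 220 aligned bases are identical (90.5%). These stretches are shown because they are the longest of the upstream alignments made. Capitals mark bases that differ or have no partner, and the stretches run from base −237 to −16 relative to the Gstp1 start site and −250 to −19 relative to that of Gstp2.
Gstp1, chr19:4037928-4038149, minus strand: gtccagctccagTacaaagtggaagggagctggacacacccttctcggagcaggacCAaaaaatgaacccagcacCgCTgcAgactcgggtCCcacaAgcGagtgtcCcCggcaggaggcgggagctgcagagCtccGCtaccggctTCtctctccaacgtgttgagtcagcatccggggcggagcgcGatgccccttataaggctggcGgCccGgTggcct
Gstp2, chr19:4042240-4042471, minus strand: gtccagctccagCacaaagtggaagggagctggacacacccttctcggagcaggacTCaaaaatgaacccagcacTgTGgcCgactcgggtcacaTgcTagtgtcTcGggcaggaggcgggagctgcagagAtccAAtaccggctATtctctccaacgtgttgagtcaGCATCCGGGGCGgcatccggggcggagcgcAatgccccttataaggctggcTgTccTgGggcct
The longest run of capitals in Gstp2 repeats the bases that follow it.

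Among the theta genes Gstt3 rose most, Gstt2 rose in CPT, and Gstt1 fell slightly by CPM. Gstt3 had 68.1, 61.1 and 64.0 CPM in AT3 and 24.8, 26.4 and 41.9 CPM in CPT, against 15.4, 18.4 and 15.4 CPM in CON. The 3 groups did not overlap, with AT3 highest and CON lowest, and CPT library 3 stood nearest to AT3. Against CON, Gstt3 was 1.88-fold higher in CPT (0.91 ± 0.16, edgeR adjusted p = 0.000179) and 3.91-fold higher in AT3 (1.97 ± 0.16, adjusted p = 5.32e-08). Gstt1, which conjugates small halogenated hydrocarbons, had 176.8, 175.6 and 200.1 CPM in AT3 and 197.4, 196.7 and 201.4 CPM in CPT, against 248.8, 235.5 and 247.8 CPM in CON. It was lower by CPM in both (−0.30 ± 0.09 in CPT, adjusted p = 0.00872; −0.41 ± 0.09 in AT3, adjusted p = 0.000877) but called higher on the TPM scale (0.32 in each), so its direction turns with the scaling. Gstt2 had 80.1, 71.0 and 77.0 CPM in AT3 and 88.1, 110.2 and 97.0 CPM in CPT, against 69.4, 70.1 and 72.7 CPM in CON. It was higher in CPT (0.48 ± 0.10, adjusted p = 0.000616) and not called in AT3 (0.10 ± 0.10, adjusted p = 0.365), though it was called there on the TPM scale (0.72). Of the 50-base stretches of Gstt3, 26% recur in the gene model Gm20441, which held 0 counts in all libraries.

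Of the transferases with other roles, Gstz1 and Gstk1 rose and Gsto1 and Gsto2 were weaker cases. Gstz1, the maleylacetoacetate isomerase of tyrosine breakdown, had 597.4, 575.1 and 565.6 CPM in AT3 and 423.2, 473.4 and 545.6 CPM in CPT, against 248.6, 259.1 and 214.9 CPM in CON. Every injured liver lay above CON, and the rise was 1.995-fold in CPT (0.997 ± 0.11, edgeR adjusted p = 1.54e-06) and 2.40-fold in AT3 (1.27 ± 0.11, adjusted p = 9.58e-08). The AT3 libraries also lay above the CPT libraries, but that difference was not called (0.27 ± 0.11, edgeR adjusted p = 0.175). Of all genes, 27.0% had AT3 and CPT libraries that did not overlap. Gstk1, the kappa transferase of mitochondria and peroxisomes, had 95.8, 99.1 and 96.6 CPM in AT3 and 76.9, 82.4 and 98.6 CPM in CPT, against 48.0, 53.9 and 41.7 CPM in CON. All injured livers were higher (0.84 ± 0.11 in CPT, adjusted p = 1.10e-05; 1.02 ± 0.11 in AT3, adjusted p = 1.23e-06). Gsto2, an omega enzyme that reduces dehydroascorbate, reached at most 1.19 CPM, in a CPT library, and was called higher (1.59 in CPT, 1.25 in AT3). The Gsto2 call was lost in CPT without CPT library 3 or CON library 2, and in AT3 without any of CPT library 2, AT3 library 1, 2 or 3, or CON library 2 or 3. Gsto1, its neighbour, averaged 25.7 CPM in AT3, 28.8 in CPT and 32.9 in CON, and was called in AT3 against CON only (−0.36, adjusted p = 0.0190), a call lost without AT3 library 1 or 2 or CON library 2 and with the sign turned on the TPM scale (0.15). In CPT against CON its value of −0.19, not called, also turned on the TPM scale, to 0.23.

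Both tested microsomal transferases fell by CPM. Mgst1, an enzyme of the endoplasmic reticulum and outer mitochondrial membrane, had 1623, 1624 and 1824 CPM in AT3 and 2066, 2339 and 1681 CPM in CPT, against 3170, 3189 and 3505 CPM in CON. Every injured liver was below CON, with −0.70 ± 0.12 in CPT (edgeR adjusted p = 0.000162) and −0.96 ± 0.12 in AT3 (adjusted p = 6.13e-06), though the TPM values of −0.16 and −0.33 were not called. Mgst3, which has peroxidase and transferase activity towards lipids, had 8.10, 8.27 and 11.3 CPM in AT3 and 14.2, 14.5 and 11.3 CPM in CPT, against 48.3, 45.9 and 45.8 CPM in CON. The fall was 3.50-fold in CPT (−1.81 ± 0.13, adjusted p = 1.26e-08) and 5.06-fold in AT3 (−2.34 ± 0.13, adjusted p = 7.58e-10). Mgst2 reached at most 0.196 CPM, in a CON library, and was not tested.

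Of the peroxidases Gpx4 rose, Gpx3 fell by CPM and Gpx1 did not pass the test. Gpx4, which reduces lipid hydroperoxides in membranes and restrains ferroptosis, had 454.1, 410.9 and 430.8 CPM in AT3 and 534.1, 575.1 and 588.3 CPM in CPT, against 262.0, 299.2 and 280.4 CPM in CON. The groups did not overlap, with CPT highest, and the rise was 2.02-fold in CPT (1.01 ± 0.10, edgeR adjusted p = 2.50e-07) and 1.54-fold in AT3 (0.62 ± 0.09, adjusted p = 3.40e-05). Of the 50-base stretches of Gpx4, 61.7% recur in another gene, most of them in the pseudogene Gpx4-ps2, which had 5.37 ± 0.286 CPM in AT3, 11.4 ± 0.375 in CPT and 14.8 ± 2.44 in CON. Gpx1, the general cytosolic peroxidase, had 522.9, 530.7 and 599.3 CPM in AT3, 491.7, 915.9 and 860.0 CPM in CPT, and 590.3, 716.1 and 500.6 CPM in CON. CPT library 1 stood apart from the other two, the groups overlapped, and the values against CON were 0.33 ± 0.19 in CPT (adjusted p = 0.138) and −0.13 ± 0.19 in AT3 (adjusted p = 0.556). Without CPT library 1 the CPT value was 0.62 and called (adjusted p = 0.000978); on the TPM scale Gpx1 was higher in both, by 1.21 and 0.93, and without CON library 2 the AT3 value was 0.02.

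Gpx3, the secreted plasma peroxidase, averaged 6.83 ± 0.840 CPM in AT3 and 6.59 ± 1.72 CPM in CPT, against 13.2 ± 1.01 CPM in CON (SD, n = 3 each). Its log2 fold change was −1.01 in CPT (edgeR adjusted p = 6.58e-05) and −0.94 in AT3 (adjusted p = 9.55e-05), while on the TPM scale the values of −0.35 and −0.21 were not called. Gpx7 and Gpx8, peroxidases of the endoplasmic reticulum that use cysteine in place of selenocysteine, were scarce. Gpx7 averaged 0.918 CPM in AT3, 1.22 in CPT and 0.839 in CON and was not called by CPM, while on the TPM scale it was called higher in CPT (0.47) and in AT3 (0.32). Gpx8 averaged 0.162 CPM in AT3, 0.291 in CPT and 0.659 in CON, and was called in AT3 against CON (−2.01, adjusted p = 0.00604) but not in CPT (−1.21, adjusted p = 0.0597). The AT3 call was lost without CON library 2, with the AT3 and CON libraries fitted alone and on the TPM scale (−0.29), and the CPT value passed without CON library 3. Markers of stellate cells and fibroblasts, all 8 of which were called lower in AT3 and in CPT than in CON, summed to between 25.04 and 36.7 CPM in AT3, 36.8 and 45.2 in CPT, and 169.3 and 203.0 in CON. Of all genes, 32.9% were called lower in AT3 than in CON and 30.8% in CPT than in CON. The part of the stellate cell and fibroblast markers in the Gpx8 values was not tested. Gpx2, known from gut epithelium, had at most 10 counts in an injured liver and 0 in all CON libraries, and Gpx5 had 0 counts everywhere.

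The selenium-dependent peroxidases Gpx1, Gpx2, Gpx3 and Gpx4 carry a TGA codon read as selenocysteine in the active site, so their output depends on selenium supply as well as on message. The codons are shown because they set these peroxidases apart from Gpx7 and Gpx8; they come from the GENCODE M21 transcripts of GRCm38, with the codon in capitals and its position given.
Gpx1, chr9:108339451-108339453, plus strand: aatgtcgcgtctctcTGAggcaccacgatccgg
Gpx2, chr12:76795256-76795258, minus strand: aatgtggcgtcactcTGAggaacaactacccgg
Gpx3, chr11:54907256-54907258, plus strand: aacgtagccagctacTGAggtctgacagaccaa
Gpx4, chr10:80054737-80054739, plus strand: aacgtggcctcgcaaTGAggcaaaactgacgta
Of these 4 genes, Gpx4 rose, Gpx3 fell by CPM, Gpx1 was not called and Gpx2 was not tested.

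**Figure D4:**
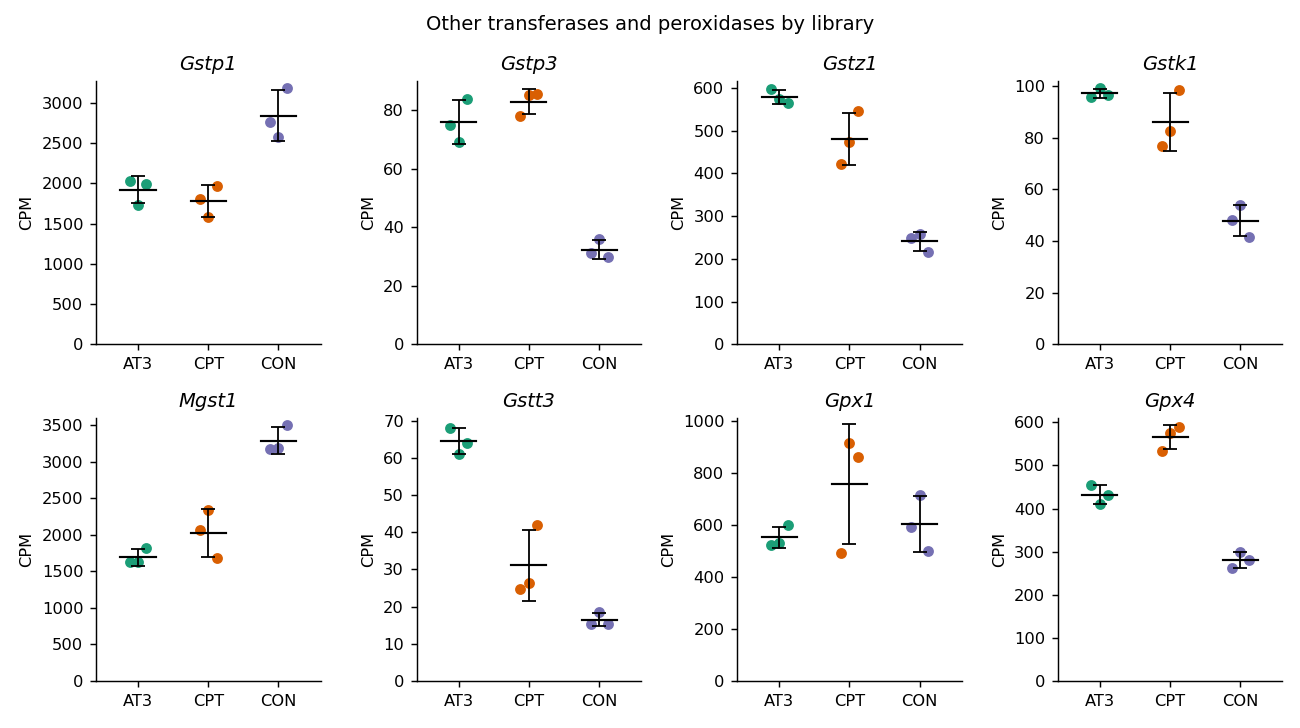
CPM (y axis, from 0) of Gstp1, Gstp3, Gstz1, Gstk1, Mgst1, Gstt3, Gpx1 and Gpx4 in each library of AT3, CPT and CON; the long bar is the mean and the whiskers are 1 SD. Gstt3 averaged 64.4 in AT3, 31.1 in CPT and 16.4 in CON, and Gpx4 431.9, 565.8 and 280.5, while the 3 CPT libraries of Gpx1 spread from 491.7 to 915.9.

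In AT3 livers against CPT livers, both cisplatin-injured, 1 glutathione gene of the 32 tested was called higher and 5 lower, and 26 were not called. The 6 make 18.8% of the tested members, while of all genes 4.68% were called, 2.46% higher and 2.22% lower. An unadjusted p under 0.05 was found for 16 members in edgeR. The share of all genes at that unadjusted threshold was not computed, here or below, so such counts have no background beside them. The members' median log2 fold change was −0.21, beside 0.00 for all genes, and the libraries did not overlap for 12 members, against 27.0% of all genes. Gstt3 was the rise: AT3 had 2.08 times the CPT level (1.05 ± 0.16, edgeR adjusted p = 0.00199), and it stayed called whichever library was left out. Gstm3 was 1.98-fold lower (−0.99 ± 0.19, adjusted p = 0.0106), Gstm1 1.36-fold lower (−0.44 ± 0.12, adjusted p = 0.0457), Mgst3 1.45-fold lower (−0.53 ± 0.13, adjusted p = 0.0346), Gpx4 1.31-fold lower (−0.39 ± 0.09, adjusted p = 0.0299) and Gstt2 1.29-fold lower (−0.37 ± 0.10, adjusted p = 0.0412). For Gstm3, Gstm1 and Mgst3 the AT3 values lay farther from CON than the CPT values did, and for Gpx4 and Gstt2 they lay nearer.

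The number of calls in AT3 against CPT rested on single libraries. It was 11 without CPT library 3, 2 without CPT library 2, 2 without AT3 library 1, 1 without AT3 library 2 and 3 without CON library 1. Gstm3 lost its call only without AT3 library 2 (adjusted p = 0.0625) among these, whereas Gpx4 lost it without CPT library 2 or any AT3 library. Gstt2 lost it without those 4 libraries or CON library 1, Mgst3 without CPT library 1 or 2, AT3 library 1 or 2 or CON library 1, and Gstm1 without any of these or CON library 3. With the replicate number added to the edgeR fit as a block, 2 members stayed called, Gstt3 and Gstm3. On the TPM scale limma called 0 members and 45 of all genes at adjusted p < 0.05, while 7 members had an unadjusted p under 0.05. There Gstt3 stood at 1.14 (limma adjusted p = 0.0550), Gstm1 at −0.74, Gstm3 at −0.53, Mgst3 at −0.41, Gstt2 at −0.27 and Gpx4 at −0.24. DESeq2 on counts called 9 members, the 6 above with Gstm2, Gstm6 and Gstm7. Just outside the threshold stood Gstm2 (−0.35, adjusted p = 0.0518), Gstm7 (0.36, adjusted p = 0.0656) and Gstm6 (−0.33, adjusted p = 0.0683), whose AT3 and CPT libraries did not overlap. Gclc, Gclm and Gss differed by 0.15 ± 0.11, −0.13 ± 0.10 and 0.05 ± 0.10, with 95% intervals of −0.05 to 0.36, −0.32 to 0.06 and −0.15 to 0.25.

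Per length, which allows genes to be compared with each other, a handful of transcripts made up most of the class. In deposited TPM, Gstp1 stood at 3178 ± 218 in AT3, 2823 ± 323 in CPT and 3588 ± 149 in CON, and Mgst1 at 2647 ± 58.0, 3005 ± 498 and 3348 ± 332 (SD, n = 3 each). In CPT and in CON the means of Gstp1 and Mgst1 differed by less than the SD of Mgst1. Gstm1 ranked 7 among the members in AT3 at 406 ± 72.2 TPM and 5 in CPT at 676 ± 87.4 TPM, against 3 in CON at 2594 ± 249 TPM. Gpx1 and Gpx4 held ranks 3 and 4 in both kinds of injured liver, at 970 ± 47.1 and 670 ± 38.9 TPM in AT3 and 1235 ± 433 and 796 ± 92.3 TPM in CPT, against 533 ± 201 and 259 ± 47.4 TPM in CON. All 26 transferases together held 8203 ± 284 TPM in AT3, 8278 ± 345 in CPT and 10681 ± 655 in CON.

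**Figure D5:**
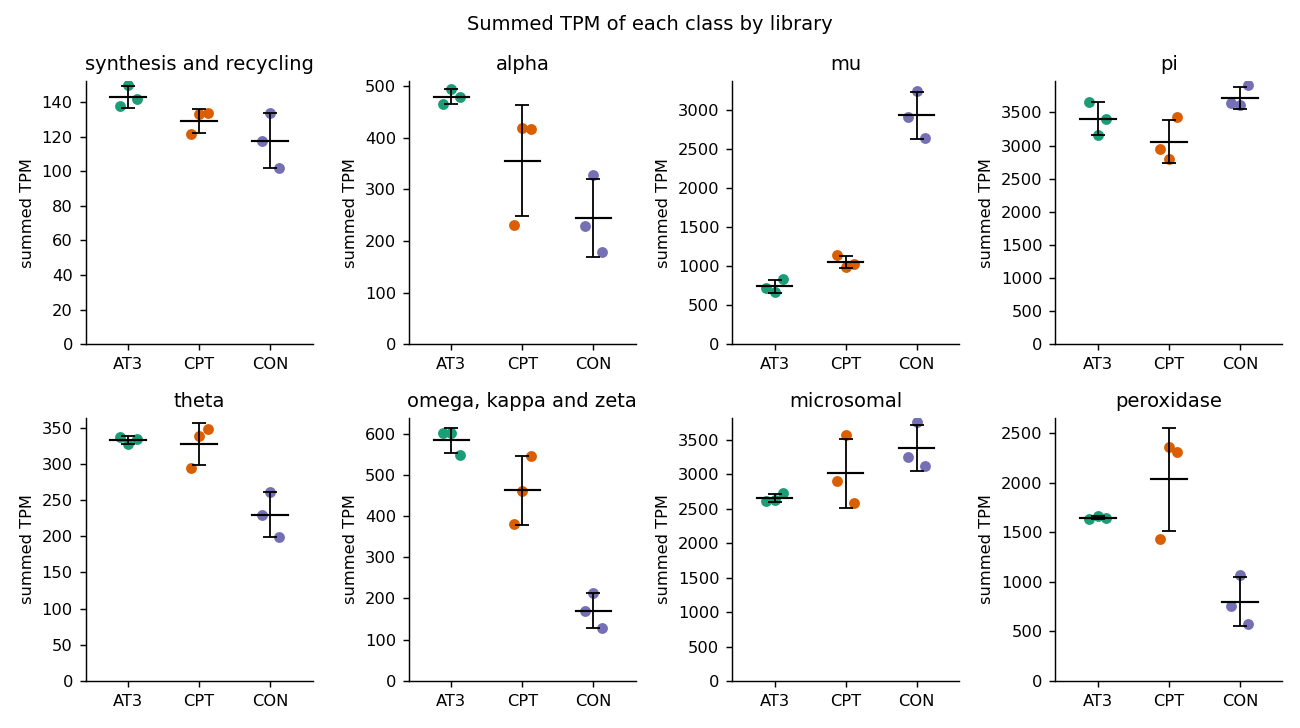
Summed TPM (y axis, from 0) of each class of glutathione genes in each library of AT3, CPT and CON, with the mean (long bar) and 1 SD (whiskers). The mu sum averaged 741 in AT3, 1054 in CPT and 2931 in CON, while the omega, kappa and zeta sum averaged 584, 462 and 171 and the peroxidase sum 1646, 2037 and 799.

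Other genes of the pathway were counted by lists. Of 11 tested genes of cysteine and methionine supply, 6 were higher and 2 lower in CPT than in CON, and 7 higher and 3 lower in AT3 than in CON, with medians of 0.27 and 0.55. Of all genes, 60.8% and 64.4% were called in these comparisons, with medians of −0.02 and −0.04. Mat1a, which makes S-adenosylmethionine in hepatocytes, averaged 7538 ± 275 CPM in AT3 and 6511 ± 434 CPM in CPT, against 925 ± 130 CPM in CON (SD, n = 3 each; 2.81 ± 0.13 in CPT, edgeR adjusted p = 7.09e-11). Bhmt, which remethylates homocysteine, averaged 10612 ± 99.2 CPM in AT3 and 9976 ± 857 CPM in CPT, against 1948 ± 230 CPM in CON. Cth, cystathionine gamma-lyase, which releases cysteine, averaged 525 ± 30.0 CPM in AT3 and 373 ± 47.4 CPM in CPT, against 95.9 ± 6.52 CPM in CON (2.45 in AT3 and 1.9596 in CPT). Cth and Cdo1, the dioxygenase that degrades cysteine, were also higher in AT3 than in CPT (0.49, adjusted p = 0.0169, and 0.52, adjusted p = 0.0123). Each lost its call without CPT library 2 or AT3 library 1 or 2, Cth also without CPT library 1 and Cdo1 also without AT3 library 3. Slc7a11, the cystine carrier, was too scarce to be tested.

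Of 7 tested carriers that export conjugates, 5 were lower and 1 higher, in CPT and in AT3 alike, each against CON, where 30.8% and 32.9% of all genes were lower. Their medians were −1.203 and −1.25, beside −0.02 and −0.04 for all genes. Abcc2, the canalicular exporter of conjugates, was the one that rose (0.65 in CPT and 0.97 in AT3). Abcc6 averaged 38.4 ± 2.48 CPM in AT3 and 38.5 ± 1.52 CPM in CPT, against 121 ± 5.59 CPM in CON (SD, n = 3 each; −1.65 ± 0.09 in CPT, edgeR adjusted p = 6.29e-10). Abcg2, an exporter of the canalicular membrane, averaged 31.4 ± 1.33 CPM in AT3 and 32.4 ± 1.34 CPM in CPT, against 74.6 ± 6.09 CPM in CON. Abcc3, a carrier of the sinusoidal membrane, averaged 21.8 ± 0.848 CPM in AT3 and 18.1 ± 3.28 CPM in CPT, against 54.9 ± 4.65 CPM in CON, a fall not called on the TPM scale (−0.19 in AT3, −0.58 in CPT). In AT3 against CPT edgeR called 0 of the 7 (2 with an unadjusted p under 0.05), DESeq2 1 and limma on TPM 0.

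Genes that break glutathione down changed in both directions, with 2 higher and 4 lower of 10 tested in CPT and 1 higher and 3 lower in AT3, each against CON. Of all genes, 60.8% were called in CPT and 64.4% in AT3, the shares that also stand beside the NADPH counts below. Ggt6, of the gamma-glutamyltransferase family, averaged 12.3 ± 0.884 CPM in AT3 and 13.4 ± 1.19 CPM in CPT, against 4.49 ± 0.407 CPM in CON (SD, n = 3 each). Nat8, the acetyltransferase of mercapturate formation, averaged 6.46 ± 1.40 CPM in AT3 and 6.21 ± 1.36 CPM in CPT, against 10.3 ± 0.576 CPM in CON. Dpep1, a dipeptidase that splits cysteinylglycine, averaged 0.443 CPM in AT3 and 0.482 CPM in CPT, against 1.39 CPM in CON. Both were called lower by CPM; on the TPM scale Nat8 was not called (−0.12 in CPT, and 0.00171 with the sign turned in AT3), nor was Dpep1 in CPT (−0.21). Of the 9 genes of NADPH supply, which feeds glutathione reductase, 3 were higher and 4 lower in CPT and 2 higher and 3 lower in AT3. Nnt, the mitochondrial transhydrogenase, averaged 59.8 ± 1.15 CPM in AT3 and 44.3 ± 6.98 CPM in CPT, against 23.2 ± 1.30 CPM in CON. Tkt, transketolase, averaged 33.3 ± 3.89 CPM in AT3 and 34.4 ± 3.42 CPM in CPT, against 93.9 ± 3.29 CPM in CON. Idh2, the mitochondrial NADP-dependent isocitrate dehydrogenase, rose in AT3 (1.04, edgeR adjusted p = 6.14e-05) and in CPT (0.98, adjusted p = 0.000130). Its cytosolic counterpart Idh1 was lower by CPM (−0.53 in AT3, −0.32 in CPT) but stood at 0.15 and 0.28 on the TPM scale, not called. Nnt was higher in AT3 than in CPT (0.43, adjusted p = 0.0322), a call lost when any AT3 library, CPT library 1 or 2, or CON library 1 was left out.

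Other enzymes that use glutathione counted 6 higher and 3 lower of 13 tested in CPT and again in AT3, each against CON. The shares of all genes called there, which also stand beside the selenoprotein counts below, were 60.8% and 64.4%. Glrx3 and Glrx5, glutaredoxins that serve iron-sulfur clusters, averaged 70.4 ± 3.13 and 59.6 ± 3.69 CPM in AT3 and 67.8 ± 10.7 and 50.6 ± 9.85 CPM in CPT, against 14.4 ± 3.53 and 18.9 ± 0.951 CPM in CON (SD, n = 3 each). Adh5, which oxidises the glutathione adduct of formaldehyde, rose in AT3 and in CPT (1.21, edgeR adjusted p = 1.20e-07, and 1.03), and Ethe1, the mitochondrial persulfide dioxygenase, fell in both (−1.18, and −1.49 with adjusted p = 2.30e-08). Of 9 tested genes of selenoprotein synthesis, which serve the selenium peroxidases, 2 were higher and 3 lower in CPT and 3 higher and 3 lower in AT3. Selenop, the selenium carrier that liver secretes, averaged 3656 ± 112 CPM in AT3 and 3158 ± 552 CPM in CPT, against 413 ± 105 CPM in CON (2.94 ± 0.17 in CPT, adjusted p = 1.26e-09). Trnau1ap, which binds the selenocysteine tRNA, rose (1.47 in CPT, 1.56 in AT3), and Scly, which frees selenium from selenocysteine, was lower by CPM (−0.65 in CPT, −0.86 in AT3) but not called on the TPM scale (−0.05 and −0.15).

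Of 12 genes around NRF2, the regulator of many members, 7 were higher and 3 lower in CPT, and 5 higher and 3 lower in AT3, each against CON. Srxn1, sulfiredoxin, averaged 39.5 ± 1.14 CPM in AT3 and 37.1 ± 6.36 CPM in CPT, against 18.0 ± 1.13 CPM in CON (SD, n = 3 each; 1.05 in CPT, edgeR adjusted p = 1.65e-06). Osgin1, a growth inhibitor induced by oxidative stress, averaged 26.9 ± 0.979 CPM in AT3 and 47.6 ± 9.24 CPM in CPT, against 334 ± 30.4 CPM in CON. It was also lower in AT3 than in CPT (−0.83 ± 0.12, adjusted p = 0.00208), a call lost on the TPM scale (−0.69). Mafg, a small partner of NRF2, was lower in AT3 and CPT (−0.83 and −0.76), as was Txn1, thioredoxin (−0.94 and −0.84), neither of them called on the TPM scale, where Mafg stood at −0.12 and −0.15 and Txn1 at −0.24 and −0.23. Bach1, a repressor that competes with NRF2, was lower in AT3 than in CPT, at 13.9 ± 1.3505 CPM in AT3 and 20.8 ± 4.27 CPM in CPT (−0.59, adjusted p = 0.0213), a call lost without CPT library 2 or any AT3 library. Over these lists together, 51 of 71 tested genes were called in CPT against CON, 48 in AT3 against CON and 5 in AT3 against CPT. Of all genes, 60.8%, 64.4% and 4.68% were called in the same comparisons, so the shares against CON lie near the background. On the TPM scale the splits were 40 higher and 5 lower, 44 higher and 6 lower, and 0 of either (limma; 11 genes with an unadjusted p under 0.05). The 5 calls in AT3 against CPT became 12 without CPT library 3, 1 without CPT library 2 or AT3 library 1 or 2, 2 without AT3 library 3 and 3 without CPT library 1, and DESeq2 made 6.

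Markers of zones of the liver lobule and of other cell types also moved with the groups. Against CON, 60.8% of all genes were called in CPT (30.0% higher, 30.8% lower) and 64.4% in AT3 (31.5% higher, 32.9% lower). Of 5 hepatocyte markers, 1 was higher and 3 lower in CPT than in CON, and 3 higher and 2 lower in AT3 than in CON. In AT3 against CPT 3 of them were higher, where 4.68% of all genes were called. Of 11 markers of hepatocytes around the central vein, where several transferases are known to be high, 2 were higher and 7 lower in CPT and again in AT3, each against CON. Their sum lay between 4766 and 5375 CPM in AT3, 4574 and 6277 in CPT, and 5929 and 6753 in CON. Of 10 periportal markers, 6 were higher in both, and 4 were lower in CPT and 2 in AT3, with sums between 7806 and 8270 CPM in AT3, 5609 and 6969 in CPT, and 2996 and 3387 in CON. Of 8 sinusoidal endothelial markers 7 were lower in CPT and in AT3 than in CON, and all 5 tested erythroid markers were lower in both, while 5 of 6 tested neutrophil markers were higher in both. Sinusoidal endothelial markers summed to between 11.9 and 20.3 CPM in AT3, 10.9 and 15.7 in CPT, and 102.6 and 103.5 in CON. Erythroid markers summed to between 38.4 and 44.5 CPM in AT3, 42.7 and 50.9 in CPT, and 798 and 908 in CON. Kupffer cell markers lay between 13.6 and 17.3 CPM in AT3, 11.1 and 13.1 in CPT, and 26.9 and 32.5 in CON. Neutrophil markers lay between 13.3 and 13.8 CPM in AT3, 24.7 and 51.9 in CPT, and 4.24 and 4.95 in CON. Cholangiocyte markers summed to between 32.2 and 36.2 CPM in AT3, 26.6 and 31.0 in CPT, and 28.6 and 37.1 in CON, with Cftr at 0. Kidney tubule markers summed to between 2.62 and 6.39 CPM in AT3, 2.15 and 4.34 in CPT, and 6.81 and 10.9 in CON, with Slc34a1, Umod and Slc22a6 at 0. Exocrine pancreas markers summed to between 14.9 and 18.9 CPM in AT3, 13.1 and 14.7 in CPT, and 18.6 and 25.2 in CON, with Cpa1 and Prss2 at 0. Cela2a averaged 6.34 CPM in AT3 and 4.33 CPM in CPT, against 0 in CON. The part of these cell types in the changes of the glutathione genes was not tested.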

How the data were processed

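Liver RNA was prepared with a column kit and a SMARTer mRNA library kit, per the labels' protocols, which do not mention strand. The authors deposited estimated counts per gene and a table of TPM, values scaled to gene length and to an equal total in each library, as the deposited values show; neither label nor header names an aligner or counter. Group and replicate follow the titles.

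Between 7.96% and 9.55% of the estimated counts in a library were not whole, and all were rounded. Genes passing edgeR's low-count filter by group were tested with its quasi-likelihood fit (edgeR 4.0.16, R 4.3.3) of all 9 libraries, with TMM scaling and Benjamini-Hochberg adjustment over 13686 genes, at adjusted p < 0.05. TMM factors were between 1.05 and 1.13 in AT3, 1.07 and 1.13 in CPT, and 0.726 and 0.963 in CON. Scaled CPM follow these factors. SE were derived from the log2 fold change and F statistic of this fit, and the 95% intervals use a normal multiplier of the SE. The intervals are therefore narrower than the test implies. In CPT against CON, that of Gstm2 runs from 0.01 to 0.39, while its unadjusted p in edgeR's test is 0.0562. P-values given with no other tool are the fit's adjusted p-values. Libraries of a group differed beyond counting error (chi-square per degree of freedom between 7.35 and 104). Alternatives used DESeq2 1.42.0 and limma 3.58.1 on the deposited TPM. On simulated counts, the fit recovered 82.1% of genes changed 2-fold in CPT against CON, 77.6% in AT3 against CPT and 82.1% in AT3 against CON. For 1.5-fold changes it recovered 50.7%, 46.3% and 43.3%. The calls of Gstm1, Mgst3, Gpx4 and Gstt2 in AT3 against CPT were smaller than 1.5-fold. The simulation changed far fewer genes than were called against CON, so it does not cover shifts that wide. Promoters and transcripts were read with Biopython 1.88 in Python 3.11.15.

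All members are named, with values in every library for the synthesis genes, Gpx1, Gpx4, the most abundant of each class and up to 6 largest rises and falls per comparison with at least 1 CPM in a group; of other pathway genes, up to 3 per list and comparison with the smallest p. Members and lists were chosen with earlier results of these data known. Promoters of Gclc, Gsr, Gsta4, Gsta5 and Gstt2 were not used here.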

Additional observations from a re-analysis of the deposited data

How the results depend on the processing

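Called higher and lower on TPM (+ 1 and + 0.1 alike) were 16 and 7 members in CPT against CON, 17 and 6 in AT3 against CON, and 0 and 0 in AT3 against CPT. The other settings kept the CON counts within 1.5 times; leaving out a library gave between 20 and 24 calls in CPT and 22 and 26 in AT3.

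The 6 calls in AT3 against CPT (1 higher, 5 lower) became 12 with no filter (3 higher, 9 lower), 3 on TPM centred on each library's median, an alternative chosen after seeing the data (2 lower), and 3 with the 6 libraries compared alone (2 lower). DESeq2 gave 2 higher. Leaving out a library gave between 1 and 11 calls, between 1 and 4 higher and between 0 and 7 lower. Pathway genes called there numbered 0 on TPM, 2 on centred TPM and between 1 and 12 with a library left out.

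Directions of members turned as follows, with + 1 and + 0.1 values. In CPT against CON, Gclm was 0.027 and 0.027, Gsr 0.26 and 0.34, Gstt1 0.32 and 0.32, Gsto1 0.23 and 0.23, and Gsta3 0.74 and 0.75 (0.35 centred; between −0.20 and 0.12 with a library left out). In AT3 against CPT, Gclm was 0.12 and 0.12 (0.046 centred), Gstt1 0.0020 and 0.0020, and, with a library left out, Gss was between −0.054 and 0.11, Gpx3 between −0.090 and 0.28, Gstm4 between −0.17 and 0.013 and Gstm5 between −0.16 and 0.016. In AT3 against CON, Gclm was 0.15 and 0.15, Gstt1 0.32 and 0.32, Gsto1 0.15 and 0.15, Gstm2 0.54 and 0.54 (0.077 centred), Gpx7 −0.15 centred only, and Gpx1 0.93 and 0.93 (0.47 centred; between −0.24 and 0.019 with a library left out). The cause was not tested.

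Same-numbered libraries of different groups correlated between −0.0378 and 0.0762. Between CPT and AT3 the same-numbered libraries correlated at 0.0518, 0.0762 and 0.0668, and all others between −0.0577 and −0.0185. Whether the numbers pair the libraries is not known. With the replicate number as a block, AT3 against CPT had 2 calls (1 higher, 1 lower), CPT against CON kept all 23 and AT3 against CON lost that of Gsto2. Each CPT library correlated best with the AT3 library of its number. The correlations are of deviations from group means, so those of a library with another group balance around 0. The unmatched CPT library 1 and CON library 3 reached 0.0370. These values therefore cannot decide whether the libraries are paired.

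Members under about 1 CPM (Gsta1, Gsto2, Gpx7, Gpx8) are limited by depth.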
